A study of Mus musculus with 16 samples.

Results

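The genes described here are 49 nuclear genes whose products copy, transcribe, cut, modify, stabilise or degrade the DNA and RNA of mitochondria, or control how much of that machinery a cell makes. They were taken by gene symbol from a table of 54532 genes. All 49 had a row in the table, and all 49 passed the filter on low counts that left 16910 genes for testing. They were set beside the 37 genes of the mitochondrial genome itself.

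The samples were pancreatic islets of male BKS(D)-Leprdb/JOrlRj mice aged 12 to 13 weeks, called *db/db* islets, which come from mice without a working leptin receptor that become obese and diabetic. After isolation and hand picking, the islets were cultured at 11 mmol/l glucose for 1 day. The medium held DMSO, the solvent, or the small molecule adjudin at 10 µmol/l. Each treatment had 8 samples, numbered by batch from 1 to 8 so that a DMSO and an adjudin sample shared every number, and every mouse of both groups carried the same *Lepr* mutation. Each sample was the islets of 1 to 2 mice, batches of islets that looked aberrant had not been used, and wild-type islets were not analysed here. The libraries were made from polyadenylated RNA and held 24190102 to 32675186 counted reads with DMSO and 24852862 to 34471164 with adjudin.

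Mammalian mitochondria keep a small circular genome that codes for subunits of the respiratory chain and for the rRNAs and tRNAs needed to translate them, while every protein that copies or transcribes this genome is imported from the cytosol. Both strands are transcribed as long precursors that start near each other in the control region, and the tRNAs lying between the other genes mark where the precursor is cut. The amount of each mature RNA then depends on cutting, polyadenylation, binding by stabilising proteins and decay. In beta cells the respiratory chain makes the ATP that couples glucose breakdown to insulin release, and loss of TFAM in mouse beta cells is known to cause diabetes.

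An islet is a mixture of cell types, and fewer cells of a type cannot be told apart from less RNA per cell in such samples. Markers of beta cells summed to between 36015 and 121621 CPM (read counts scaled to a common library size) in the DMSO samples and to between 40095 and 105240 CPM in the adjudin samples, and no marker of the endocrine cells was at 0 in any sample. Of the beta cell markers, 3 of 10 were upregulated with adjudin at an adjusted p under 0.05, where 2.17% of all tested genes were. In the same comparison 11 of 15 macrophage markers and 6 of 10 markers of stellate cells and fibroblasts were downregulated. Of all tested genes 3.07% were downregulated. The summed macrophage markers were 811 to 1480 CPM with DMSO and 790 to 1056 CPM with adjudin, lower in 8 of 8 batches, and their part in the results that follow was not tested. Of the other markers 1 of 8 endothelial genes was upregulated, and 0 of 5 alpha cell, 0 of 3 delta cell, 0 of 6 ductal and 0 of 9 tested acinar genes passed. With 5.24% of all tested genes passing, lists this short would hold few or no calls, so a 0 marks no contrast. The 4 libraries of batches 2 and 3 stood apart from the other 12, as described with the batches further on, and results that rest on them are also given without them.

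The start sites of the nuclear members are shown first, because control of these genes by shared factors such as NRF1 and GABP is part of what they are known for. RefSeq promoters on GRCm38.p6, of 250 bases before to 50 bases after the start, could be matched to 45 of the 49 members (52 promoters). The letters CCGGAAGT, a strong site of the ETS factor GABPA, were found on either strand in promoters of 11 members (24.4%), against 4.31% of 27025 genes with a promoter in the same set. These were *Fastkd5*, *Mrm2*, *Mterf1a*, *Nsun3*, *Polg*, *Ptcd2*, *Tefm*, *Tfam*, *Trmt10c*, *Trmu* and *Twnk*. The letters GCGCA, any base and then GCGC, an NRF1 site, were found on either strand in promoters of 5 members (11.1%, against 5.19% of genes), which were *Exog*, *Fastkd3*, *Polrmt*, *Ptcd1* and *Rexo2*. The letters TCAAGGTCA, a site of oestrogen-related receptors, were in 0 of the 45 (0.466% of genes). No member held more than 1 of these motifs, and a match describes the letters only. Of the promoters printed here, those of *Lrpprc* and *Rexo2* belong to the members that passed the test with adjudin, and those of *Tfam* and *Tefm* belong to core transcription factors of the organelle. Capitals mark the GABPA letters in *Tfam* and *Tefm* and the NRF1 letters in *Rexo2*. The window of *Lrpprc* held none of the motifs. All are on the minus strand, at chr10:71237995-71238294 (*Tfam*), chr11:80142104-80142403 (*Tefm*), chr9:48480562-48480861 (*Rexo2*) and chr17:84790737-84791036 (*Lrpprc*).
Tfam: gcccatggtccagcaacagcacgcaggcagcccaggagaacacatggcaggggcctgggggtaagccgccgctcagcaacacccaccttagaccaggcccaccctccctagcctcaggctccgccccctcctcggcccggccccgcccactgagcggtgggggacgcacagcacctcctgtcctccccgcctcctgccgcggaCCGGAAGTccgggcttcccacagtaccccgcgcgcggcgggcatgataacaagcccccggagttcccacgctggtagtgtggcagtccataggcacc
Tefm: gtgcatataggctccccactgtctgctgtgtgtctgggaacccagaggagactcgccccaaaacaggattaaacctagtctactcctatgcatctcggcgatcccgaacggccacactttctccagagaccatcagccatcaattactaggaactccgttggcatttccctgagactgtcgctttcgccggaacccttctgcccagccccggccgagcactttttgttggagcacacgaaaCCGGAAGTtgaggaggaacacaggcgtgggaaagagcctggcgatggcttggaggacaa
Rexo2: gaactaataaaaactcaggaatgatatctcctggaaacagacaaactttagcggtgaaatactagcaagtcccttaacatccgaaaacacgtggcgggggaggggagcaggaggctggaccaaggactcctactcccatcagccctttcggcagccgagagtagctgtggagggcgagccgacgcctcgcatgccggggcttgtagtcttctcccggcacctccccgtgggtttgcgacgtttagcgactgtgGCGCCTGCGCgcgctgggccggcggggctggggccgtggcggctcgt
Lrpprc: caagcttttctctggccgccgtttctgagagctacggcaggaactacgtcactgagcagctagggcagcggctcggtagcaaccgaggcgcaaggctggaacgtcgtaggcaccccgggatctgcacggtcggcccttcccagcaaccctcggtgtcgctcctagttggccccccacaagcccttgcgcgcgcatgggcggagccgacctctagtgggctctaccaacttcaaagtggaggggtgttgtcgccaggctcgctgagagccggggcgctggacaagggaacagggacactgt

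Levels in the DMSO samples differed widely between members. Levels of different genes are compared per length, as CPM divided by the gene length in kb that the table gives. *Rexo2*, an exonuclease that clears very short RNAs from mitochondria, was highest at 27.5 ± 3.27 CPM per kb (SD, n = 8). *Hsd17b10*, a dehydrogenase that also serves as a subunit of mitochondrial RNase P, followed at 22.5 ± 1.72 CPM per kb, and *Esrra*, the nuclear receptor ERR alpha, at 22.4 ± 2.59 CPM per kb. The last 2 of these differ by less than their spread, but at the 4387 exonic bases that GENCODE gives *Esrra* in place of the table's 2539, its level would be 12.9 CPM per kb, below *Fastk*. Of the other members *Mtpap* and *Twnk* also had exonic lengths over 1.1 times that of the table, and 45 of 49 lengths were equal. Then came *Fastk* at 15.2 ± 2.21, *Ptcd2* at 12.1 ± 0.703, *Angel2* at 10.5 ± 0.712, *Tbrg4* at 10.4 ± 1.26 and *Lrpprc* at 9.69 ± 0.535 CPM per kb. *Tbrg4* differed from *Angel2* above it and from *Lrpprc* below it by less than its spread. At the other end were *Mterf1a* (0.968 ± 0.265 CPM per kb), *Slirp* (0.856 ± 0.273), *Polg2* (0.800 ± 0.220) and, lowest, *Ppargc1a* (0.163 ± 0.0803). The place of *Slirp* is uncertain, because exons of *Snw1* overlap 93.9% of its exonic bases on the opposite strand. By comparison *mt-Co1* stood at 3484 CPM per kb, the highest count per length among mitochondrially encoded genes in these poly(A)-selected libraries, a selection that disfavours RNAs with short tails such as the rRNAs. The median coefficient of variation of the members over the 8 DMSO samples was 11.4%, against 17.7% for all tested genes. Single members ran from 5.52% for *Lrpprc* to 49.4% for *Ppargc1a*. The comparison was not matched for level, so it does not set the members apart as steady genes.

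**Figure D1:**
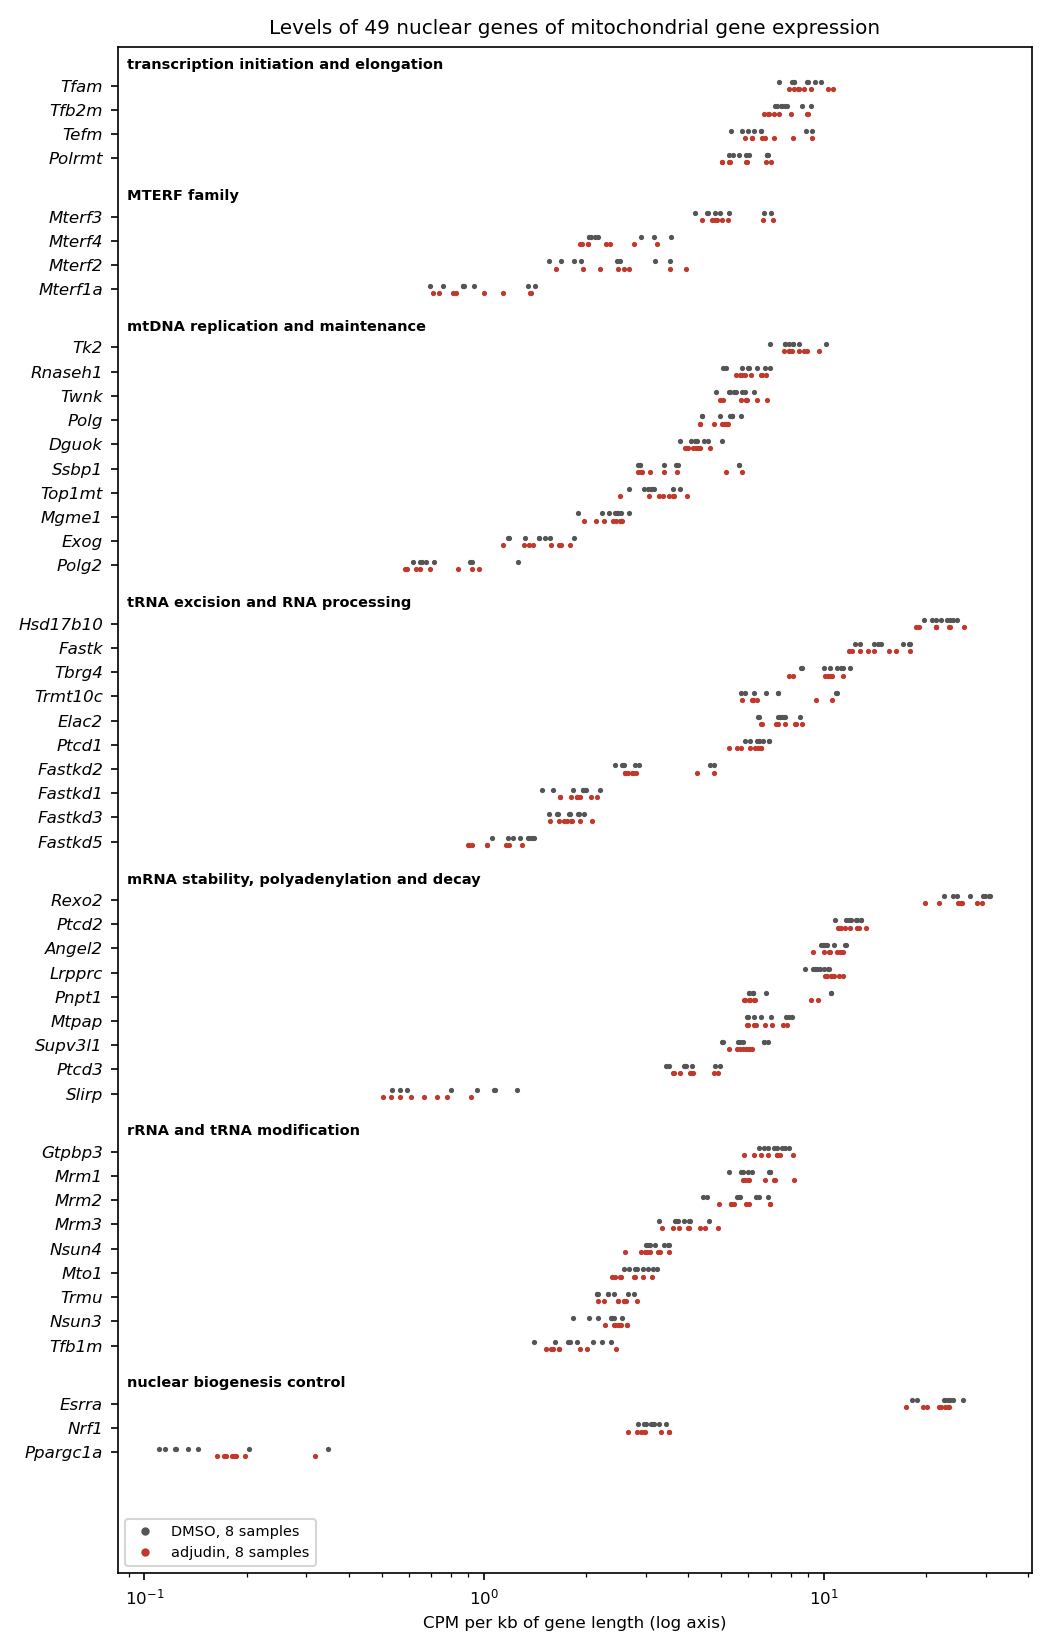
Level of each of the 49 genes in every sample, as CPM per kb of gene length on a log axis, with grey points for 8 DMSO samples and red points for 8 adjudin samples, grouped by role and ordered within each role by the DMSO mean. The points of both treatments overlap for every gene, from *Rexo2* at 27.5 CPM per kb to *Ppargc1a* at 0.163 CPM per kb in the DMSO mean.

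After 1 day with adjudin, 2 of the 49 genes passed an adjusted p of 0.05 in edgeR's quasi-likelihood test with the batch as a term (4.08%, where 5.24% of all tested genes passed). *Lrpprc* was upregulated (upregulated genes were 2.17% of all tested) and *Rexo2* was downregulated (downregulated genes were 3.07% of all tested). At an unadjusted p under 0.05 there were 9 members, 2 higher and 7 lower with adjudin (18.4%, against 21.0% of all tested genes). The median log2 fold change of the 49 was -0.020 (0.0032 over all tested genes), with 23 above and 26 below 0, and 39 lay within 0.1 of 0. DESeq2 and limma-voom called the same genes, *Lrpprc* and *Rexo2*. In these figures the members as a whole did not stand above the background of the table.

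*Lrpprc* codes for a protein that binds mitochondrial mRNAs, keeps them stable and promotes their polyadenylation together with SLIRP. It is on the minus strand of chr17:84705247-84790789 (GRCm38). Its level was 85.3, 82.8, 81.4, 79.0, 88.3, 87.6, 80.2 and 74.8 CPM in the DMSO samples of batches 1 to 8, and 94.2, 85.8, 90.6, 89.7, 97.0, 91.1, 87.2 and 86.5 CPM in the adjudin samples of the same batches. The adjudin sample was the higher of the pair in 8 of 8 batches, although the ranges of the treatments overlapped. The DMSO mean was 82.4 ± 4.55 CPM and the adjudin mean 90.3 ± 3.90 CPM (SD, n = 8 each). The log2 fold change was 0.13 (standard error 0.027, adjusted p = 0.0101), and within single batches the difference ran from 0.05 to 0.21. Without batches 2 and 3 it was 0.14 (adjusted p = 0.0436). No exon of another annotated gene overlapped it.

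*Rexo2* lies on the minus strand of chr9:48468512-48480623. Its level was 83.8, 103.6, 104.9, 91.6, 76.8, 81.6, 101.4 and 100.1 CPM with DMSO in batches 1 to 8 and 86.8, 99.3, 96.0, 84.1, 67.5, 73.8, 85.9 and 86.2 CPM with adjudin. It was lower with adjudin in 7 of 8 batches and slightly higher in batch 1, and the ranges overlapped widely because the batches differed more than the treatments. The means were 93.0 ± 11.1 and 84.9 ± 10.4 CPM (SD, n = 8 each), with a log2 fold change of -0.13 (standard error 0.032, adjusted p = 0.0270). The call was lost without batches 2 and 3 (log2 fold change -0.14, adjusted p = 0.102) and when batch 3, 4, 5, 7 or 8 alone was left out, where the adjusted p reached 0.0869, while the fold change stayed between -0.16 and -0.12. Like *Lrpprc*, it shared no exonic bases with another annotated gene.

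**Figure D2:**
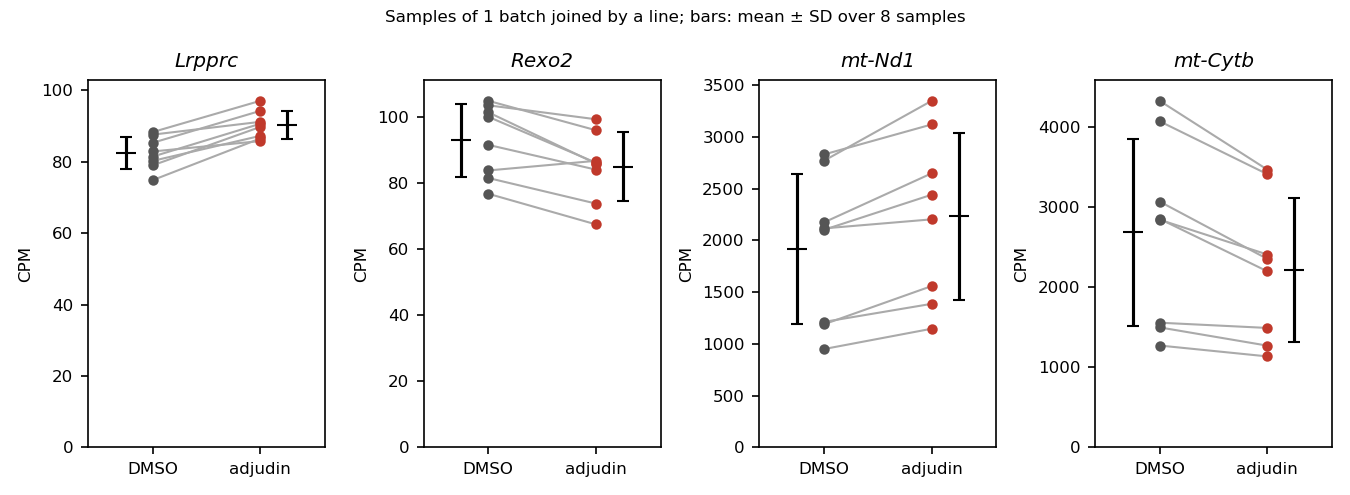
CPM of *Lrpprc*, *Rexo2*, *mt-Nd1* and *mt-Cytb* in each sample, with lines joining the samples of 1 batch and bars for the mean ± SD over 8 samples. *Lrpprc* and *mt-Nd1* were higher with adjudin in 8 of 8 batches, *mt-Cytb* was lower in 8 of 8 and *Rexo2* was lower in 7 of 8.

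The remaining genes of mRNA stability and decay did not pass. *Slirp*, the partner of LRPPRC, had 1.66, 2.72 and 3.87 CPM as the lowest, median and highest DMSO sample and 1.57, 1.98 and 2.84 CPM with adjudin. Its log2 fold change of -0.33 had a standard error of 0.161 (adjusted p = 0.249), and 3 of 8 batches were higher with adjudin. Exons of *Snw1* overlap 93.9% of its exonic bases on the opposite strand. Whether reads there were counted for *Slirp*, for *Snw1* or for neither depends on counting settings that are not given. The others were the poly(A) polymerase gene *Mtpap*, *Pnpt1* and *Supv3l1*, which form the RNA-degrading complex of the matrix, *Ptcd2*, *Ptcd3*, a pentatricopeptide protein of the small mitochondrial ribosomal subunit, and *Angel2*. Over the 9 genes of this group 3 fold changes were above 0 and 6 below, and 1 passed in each direction.

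In transcription itself 0 of the 4 core genes passed, and 0 had an unadjusted p under 0.05. Of all tested genes 5.24% passed and 21.0% had an unadjusted p under 0.05. Beside these shares, counts in groups as small as this and the role groups below mark no contrast between roles. *Tfam*, which bends promoter DNA and packs the genome into nucleoids, had 32.9, 38.1 and 43.6 CPM as the lowest, median and highest DMSO sample and 35.2, 38.3 and 47.2 CPM with adjudin. Its fold change was 0.06 on the log2 scale (standard error 0.043, adjusted p = 0.481), with 6 of 8 batches higher. *Tfb2m*, which opens the promoter, had 20.2, 21.4 and 25.7 CPM with DMSO and 18.7, 20.4 and 25.2 CPM with adjudin. Its log2 fold change was -0.04 (adjusted p = 0.596), with 2 of 8 batches higher. For these genes the treatments overlapped over most of their range.

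*Polrmt*, the RNA polymerase of mitochondria, had 24.7, 27.9 and 32.1 CPM with DMSO and 23.5, 26.3 and 32.9 CPM with adjudin. It was lower with adjudin in 7 of 8 batches, but the log2 fold change of -0.08 did not pass (standard error 0.039, adjusted p = 0.256). *Tefm*, the factor that keeps the polymerase moving along the template, had 8.36, 10.0 and 14.6 CPM with DMSO and 9.20, 10.4 and 14.5 CPM with adjudin (log2 fold change 0.05, adjusted p = 0.743, 3 of 8 batches higher). Without batch 5 its fold change was -0.0026. Summed over the 4 genes, the level was 94.1 to 107.8 CPM with DMSO and 90.4 to 110.3 CPM with adjudin.

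The MTERF family binds mitochondrial nucleic acids, and 0 of its 4 members passed, with 0 at an unadjusted p under 0.05. *Mterf3* was the highest per length at 5.25 ± 1.04 CPM per kb, and mouse work has tied its loss to altered mitochondrial transcription and ribosome assembly. *Mterf4*, whose protein brings the rRNA methyltransferase NSUN4 to the ribosome, and *Mterf2* came next at 2.51 ± 0.610 and 2.34 ± 0.721 CPM per kb, which differ by less than their spread. *Mterf1a* was lowest. The mouse has a near copy, *Mterf1b*, at 1.36 ± 0.535 CPM with DMSO against 3.04 ± 0.833 CPM for *Mterf1a*, and reads that fit both are uncertain between them. Of the exonic bases of *Mterf4*, 35.2% overlap *Sned1* on the opposite strand, and of those of *Mterf2*, 22.7% overlap *Tmem263*, also on the opposite strand. *Tmem263* stood at 72.3 CPM over all samples and *Mterf2* at 4.10 CPM with DMSO, and how reads in the shared bases were counted is not given. Fold changes in the family ran from -0.10 to 0.17 on the log2 scale.

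**Figure D3:**
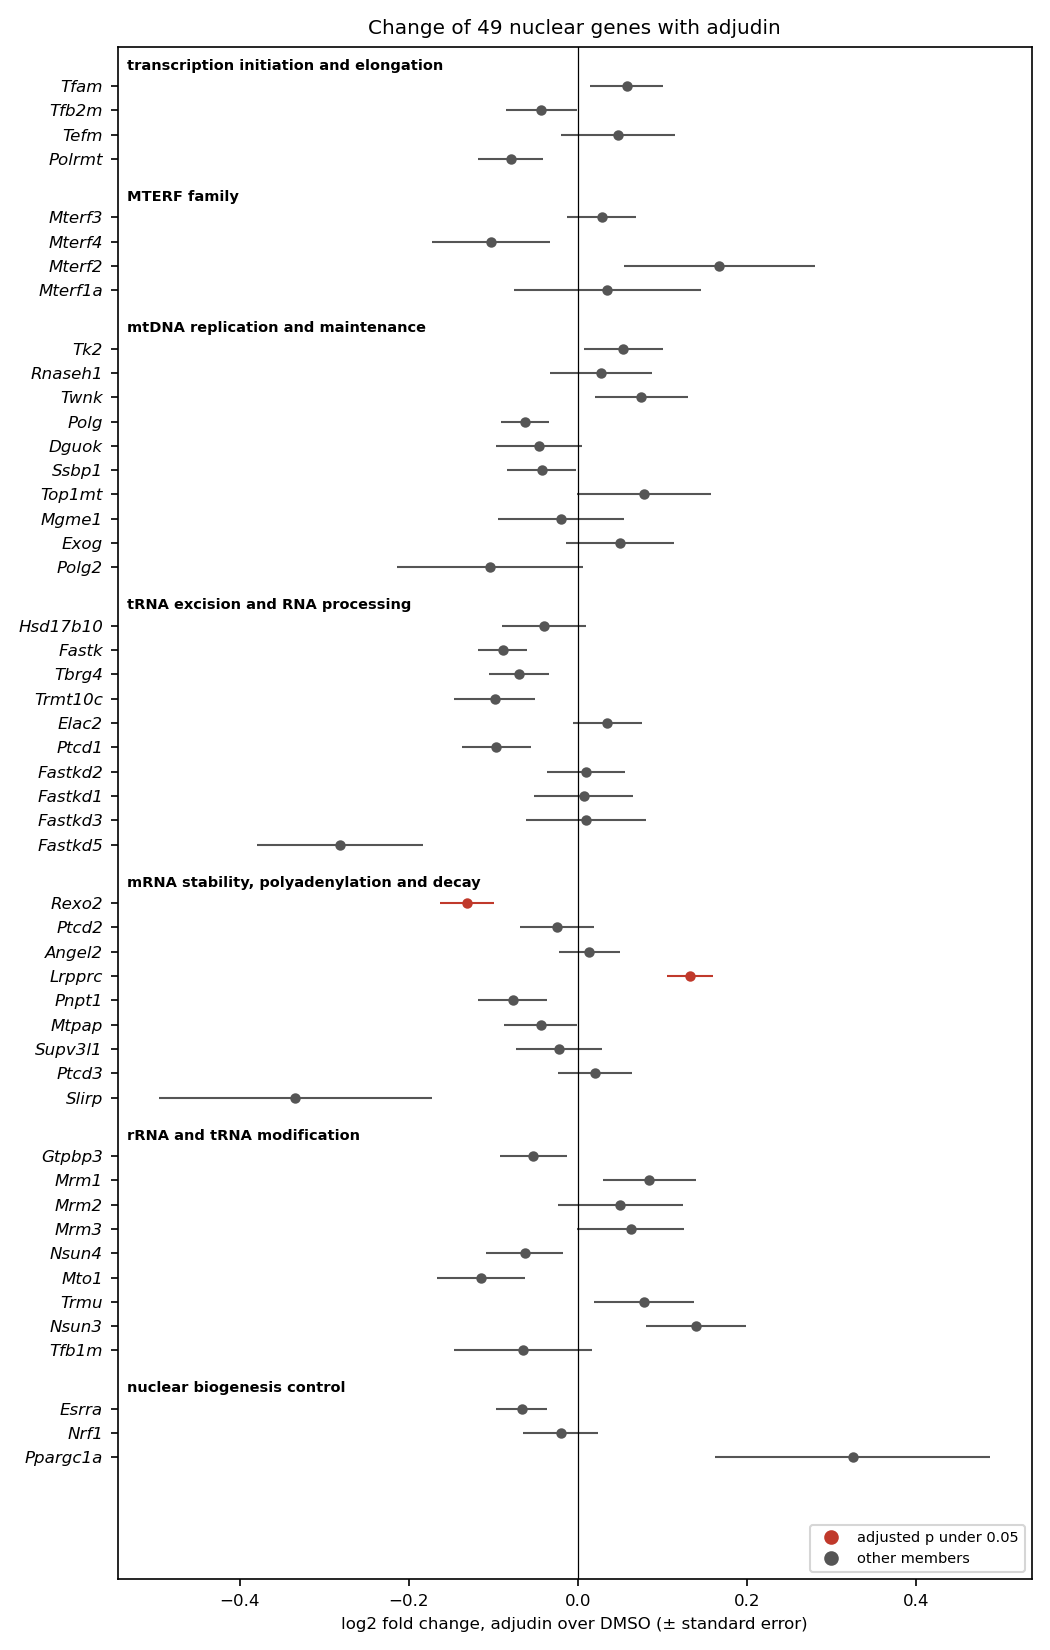
Log2 fold change, adjudin over DMSO, with its standard error for each of the 49 genes by role, in red for an adjusted p under 0.05. *Lrpprc* at 0.13 and *Rexo2* at -0.13 are the red points, and *Ppargc1a* at 0.33, *Slirp* at -0.33 and *Fastkd5* at -0.28 lie farther from 0 with wider error bars.

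The genes of mitochondrial DNA copying and upkeep did not pass either (0 of 10, with 1, *Polg*, at an unadjusted p under 0.05), and 5 fold changes were above 0 and 5 below. *Twnk*, the helicase that unwinds the genome, had 16.9, 19.2 and 21.8 CPM as lowest, median and highest with DMSO and 17.2, 20.6 and 23.7 CPM with adjudin (log2 fold change 0.08 with a standard error of 0.055, adjusted p = 0.470, higher in 4 of 8 batches). *Polg*, the catalytic subunit of the DNA polymerase, had 47.0, 57.4 and 61.3 CPM with DMSO and 46.3, 54.3 and 56.1 CPM with adjudin. It was lower with adjudin in 8 of 8 batches. Its log2 fold change of -0.06 did not pass (standard error 0.029, adjusted p = 0.224 from edgeR). A common direction in 8 of 8 batches was shared by 3 members, *Lrpprc*, *Polg* and *Fastk*, while 5.36% of all tested genes had it.

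In this group the nucleoside kinase gene *Tk2* was the highest per length at 8.14 ± 0.928 CPM per kb, and *Polg2*, the accessory subunit of the polymerase, was the lowest. *Rnaseh1*, which removes RNA primers, had 6.00 ± 0.681 CPM per kb, the other nucleoside kinase gene *Dguok* 4.31 ± 0.368, the single-stranded DNA-binding protein gene *Ssbp1* 3.84 ± 1.17, the topoisomerase gene *Top1mt* 3.18 ± 0.353, and the nuclease genes *Mgme1* and *Exog* 2.38 ± 0.239 and 1.44 ± 0.217. All the values of the group summed to 186 to 215 CPM with DMSO and 188 to 204 CPM with adjudin, so the totals of the treatments overlapped as well.

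Among the genes of tRNA excision and RNA processing 0 of 10 passed, with 4 fold changes above 0 and 6 below. At an unadjusted p under 0.05 there were 3, all lower (*Ptcd1*, *Fastk* and *Fastkd5*), where 21.0% of all tested genes had such a p in either direction. The sum of the 10 was 225 to 261 CPM with DMSO and 224 to 251 CPM with adjudin, and it was lower with adjudin in 8 of 8 batches. *Fastk*, needed in mice for the *mt-Nd6* RNA, went from 54.1, 63.9 and 78.8 CPM as lowest, median and highest with DMSO to 51.9, 60.4 and 78.3 CPM with adjudin. It was lower in 8 of 8 batches, with a log2 fold change of -0.09 (standard error 0.029, adjusted p = 0.0874 from edgeR), and 26.1% of its exonic bases overlap *Slc4a2* on the opposite strand.

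*Fastkd5*, which acts at junctions that carry no tRNA, had 3.17, 3.95 and 4.24 CPM with DMSO and 2.70, 3.07 and 3.91 CPM with adjudin (log2 fold change -0.28 with a standard error of 0.098, adjusted p = 0.108, lower in 7 of 8 batches). Most of its exonic bases, 65.2%, are also exons of *Ubox5* on the same strand, and reads there may be uncertain between the genes. For *Ptcd1*, a pentatricopeptide protein, the log2 fold change was -0.10 (adjusted p = 0.187, 7 of 8 batches lower). The tRNA-cutting enzymes did not pass. *Elac2*, which cuts at the 3′ end of tRNAs, lay between 22.3 and 29.7 CPM with DMSO and between 22.7 and 30.1 CPM with adjudin, and *Hsd17b10* between 25.6 and 32.2 and between 24.3 and 33.6 CPM. *Trmt10c*, the methyltransferase subunit of RNase P, lay between 17.2 and 33.0 CPM with DMSO and between 17.3 and 31.7 CPM with adjudin, and was lower in 6 of 8 batches (log2 fold change -0.10, adjusted p = 0.256). The nuclease subunit, *Prorp*, stands in the table under its older symbol 1110008L16Rik. It was at 11.5 ± 0.887 CPM in DMSO samples and 11.2 ± 0.895 CPM in adjudin samples (log2 fold change -0.03, adjusted p = 0.801). The remaining FASTK relatives were *Tbrg4*, *Fastkd1*, *Fastkd2*, which binds the large rRNA, and *Fastkd3*.

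Among the genes that modify rRNA and tRNA, 0 of 9 passed, with 5 fold changes above 0 and 4 below, and *Nsun3* and *Mto1* at an unadjusted p under 0.05. *Gtpbp3*, which with MTO1 modifies the wobble base of tRNAs, was the highest per length at 7.20 ± 0.520 CPM per kb, and *Tfb1m*, which methylates the small rRNA, was the lowest at 1.89 ± 0.318. *Nsun3*, which methylates the anticodon of the methionine tRNA, had 11.1, 14.5 and 15.5 CPM as lowest, median and highest with DMSO and 13.8, 15.2 and 16.1 CPM with adjudin. It was higher in 7 of 8 batches (log2 fold change 0.14, standard error 0.059, adjusted p = 0.186). *Mto1* had 10.5, 11.7 and 13.2 CPM with DMSO and 9.69, 10.8 and 12.7 CPM with adjudin, lower in 7 of 8 batches (log2 fold change -0.11, adjusted p = 0.218). The rRNA methyltransferase genes *Mrm1*, *Mrm2*, *Mrm3* and *Nsun4* and the tRNA thiolation gene *Trmu* had unadjusted p of 0.140 or more.

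Of the regulators in the nucleus 0 of 3 passed, and *Esrra* had an unadjusted p under 0.05. *Ppargc1a*, the coactivator PGC-1 alpha, had 0.728, 0.849 and 2.29 CPM as lowest, median and highest with DMSO and 1.08, 1.2 and 2.10 CPM with adjudin. It was higher in 6 of 8 batches, and batch 1 lay far above the others in both treatments. Its log2 fold change of 0.33 had a standard error of 0.163 (adjusted p = 0.266), and at about 1 CPM it had the fewest reads of all members. *Nrf1*, the nuclear respiratory factor, had 29.3, 32.2 and 35.2 CPM with DMSO and 27.3, 30.5 and 36.0 CPM with adjudin (log2 fold change -0.02, adjusted p = 0.837), and 0.0045 without batch 8. *Esrra*, which works with PGC-1 alpha, had 46.2, 58.3 and 65.5 CPM with DMSO and 44.4, 55.8 and 59.4 CPM with adjudin, lower in 7 of 8 batches (log2 fold change -0.07, standard error 0.031, adjusted p = 0.224 from edgeR).

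The RNAs that this machinery makes were compared in the same fit. Of the 37 genes of the mitochondrial genome 25 were tested and 12 passed, 7 upregulated and 5 downregulated, where 5.24% of all tested genes passed. All 37 together took 1.51% ± 0.612 of counted reads in DMSO samples and 1.53% ± 0.566 in adjudin samples (SD, n = 8), with a difference of 0.0205 ± 0.0822 percentage points within batches. The adjudin sample had the larger share in 5 of 8 batches. A two-sided exact test that flipped the signs of the batch differences gave p = 0.523, where 0.00781 is the smallest possible. The libraries were selected for poly(A) tails, and mitochondrial rRNAs and tRNAs carry short tails or none.

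Among the genes that passed, the direction followed the place of a gene on the genome. The rRNA genes, which come first, were upregulated: *mt-Rnr1* from 142 ± 40.1 to 209 ± 62.0 CPM (log2 fold change 0.56, adjusted p = 7.28e-05) and *mt-Rnr2* from 240 ± 89.5 to 320 ± 123 CPM (0.40, adjusted p = 0.00299). *mt-Nd1* went from 1919 ± 723 to 2233 ± 811 CPM (0.23, adjusted p = 0.000848) and *mt-Co1* from 5382 ± 2477 to 6013 ± 2461 CPM (0.19, adjusted p = 0.00311). Each of these was higher with adjudin in 8 of 8 batches. The genes at the far end were downregulated, each lower in 8 of 8 batches: *mt-Nd4* (log2 fold change -0.22, adjusted p = 0.0022), *mt-Nd5* (-0.23, 0.000665), *mt-Nd6* (-0.27, 0.000665), which is coded on the opposite strand, and *mt-Cytb* (from 2684 ± 1164 to 2215 ± 896 CPM, -0.25, 0.000504). The strand setting of the counting is not given, so reads of *mt-Nd6* and of RNA from the other strand cannot be told apart.

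*mt-Nd2*, which lies between *mt-Nd1* and *mt-Co1*, did not pass in edgeR (log2 fold change 0.08, adjusted p = 0.228, 6 of 8 batches higher). Nor did the genes between *mt-Co1* and *mt-Nd4*, which were *mt-Co2* (0.17, 0.0956), *mt-Atp8* (-0.17, 0.738), *mt-Atp6* (0.04, 0.812), *mt-Co3* (-0.05, 0.670), *mt-Nd3* (-0.13, 0.340) and *mt-Nd4l* (-0.19, 0.580). DESeq2 called 13 mitochondrially encoded genes, with *mt-Co2* in addition (adjusted p = 0.0432), and limma-voom called 12. *mt-Co2* also passed without batch 7 (adjusted p = 0.0267), and *mt-Co2* and *mt-Nd2* (adjusted p = 0.0455) passed when all genes with a count were tested. Over the 15 protein and rRNA genes Spearman's rho of fold change with position was -0.964, and -0.976 over the 10 left without the 5 genes held almost whole in nuclear copies. These are descriptions across genes of 1 genome that share their libraries. For *mt-Co2*, *mt-Atp6*, *mt-Co3*, *mt-Nd3* and *mt-Nd4l*, 97.6% to 99.9% of 100-base windows also occur in annotated nuclear copies. *mt-Nd4* had 60.8% and *mt-Co1* 26.3% of windows shared, and the other 8 had 0. In the table *mt-Atp6* stood at 32.0 and *mt-Co3* at 35.9 CPM per kb, against 2346 for *mt-Cytb*, while *mt-Atp8* was lowest of the 15 at 2.88. *mt-Atp8* was kept among the 10, but its 0 shared windows do not show that it lacks a nuclear copy. Only the 7 annotated copies were searched. The bases on chromosome 1 between the copies *Gm10925* (end 24614651) and *Gm28661* (start 24614885) were not. Of 7 nuclear copies tested 0 passed, with 3 at an unadjusted p under 0.05 (5.24% and 21.0% of all tested genes). How reads that fit both places were counted is not given in the sources used here.

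**Figure D4:**
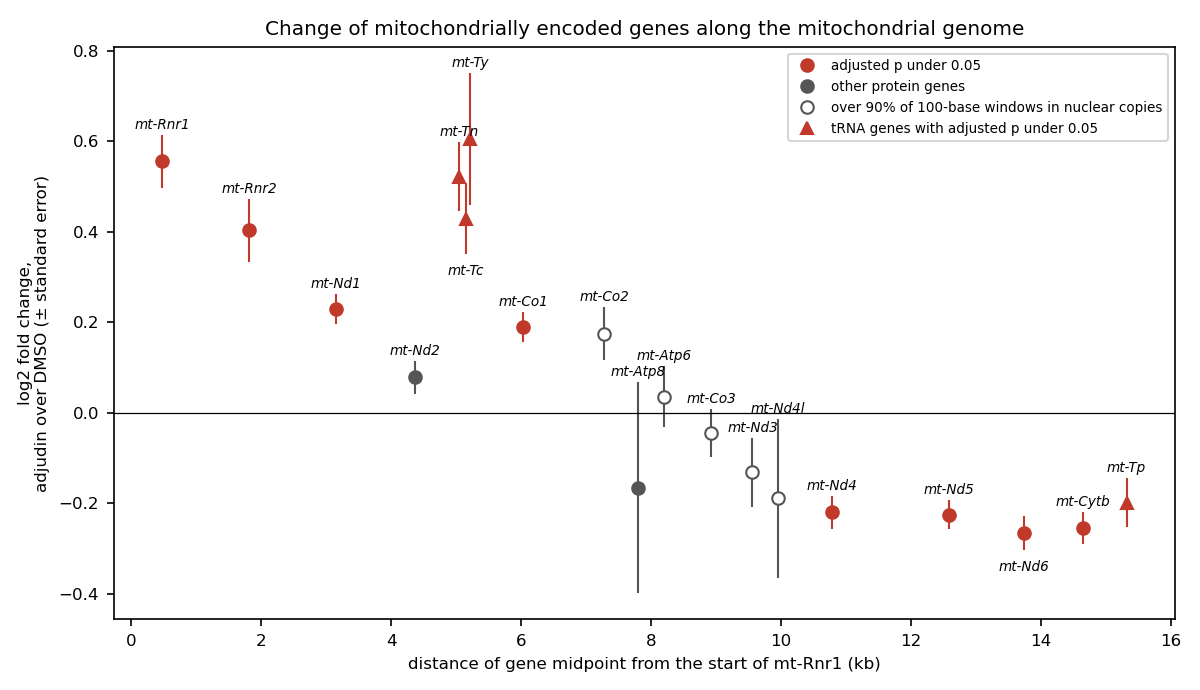
Log2 fold change, adjudin over DMSO, with its standard error for mitochondrially encoded genes against the distance of each gene's midpoint from the start of *mt-Rnr1* in kb. Over the protein and rRNA genes values go from 0.56 at *mt-Rnr1* to -0.25 at *mt-Cytb*, with *mt-Nd2* (0.08) below *mt-Co1* (0.19) after it. Triangles mark the 4 tRNA genes that passed, *mt-Tn* (0.52), *mt-Tc* (0.43), *mt-Ty* (0.61, the highest value) and *mt-Tp* (-0.20). Red marks an adjusted p under 0.05, and open circles mark genes with over 90% of 100-base windows in annotated nuclear copies. Tested tRNA genes that did not pass are not drawn.

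Ratios within a library do not depend on its scaling. The ratio of *mt-Nd1* to *mt-Cytb* was 0.655 to 0.810 in the DMSO samples (median 0.745) and 0.901 to 1.1 in the adjudin samples (median 1.02). Every adjudin sample therefore lay above every DMSO sample, and within batches the log2 ratio was higher by 0.48 ± 0.061 (SD, n = 8), with single batches between 0.43 and 0.60. The ratio of *mt-Co1* to *mt-Nd5* was 2.46 to 3.54 with DMSO and 3.46 to 4.64 with adjudin, higher in 8 of 8 batches although the ranges just overlapped. The ratio of *mt-Rnr1* to *mt-Cytb* went from a median of 0.0551 to 0.101, higher in 8 of 8 batches. These ratios set a gene higher in 8 of 8 batches over a gene lower in 8 of 8, so their rise in every batch was fixed by that choice. Between upregulated genes, the ratio of *mt-Rnr2* to *mt-Nd1* was higher in 6 of 8 batches, with a log2 difference of 0.17 ± 0.247 that its spread exceeded. These shifts stood beside log2 fold changes of -0.08 to 0.06 in the core transcription genes, and whether they are linked was not tested.

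Of 22 mitochondrial tRNA genes 10 were tested and 4 passed, where 5.24% of all tested genes passed. They are shown because they passed, and because 3 of them lie next to each other between *mt-Nd2* and *mt-Co1*. The other, *mt-Tp*, is the last gene by position. *mt-Tn* at MT:5089-5159 rose from 6.29 ± 3.5 to 8.84 ± 4.66 CPM (log2 fold change 0.52, adjusted p = 0.000744), *mt-Tc* at MT:5192-5257 from 8.44 ± 4.75 to 11.2 ± 5.97 CPM (0.43, adjusted p = 0.0047) and *mt-Ty* at MT:5260-5326 from 1.15 ± 0.494 to 1.74 ± 0.658 CPM (0.61, adjusted p = 0.0245), each in 8 of 8 batches. *mt-Tp* at MT:15356-15422 fell in 7 of 8 batches, from 30.3 ± 10.8 to 25.9 ± 7.19 CPM (-0.20, adjusted p = 0.0423). The 6 tested tRNA genes that did not pass did not all follow the order along the genome. Near the start *mt-Tl1* had a log2 fold change of -0.07, lower in 7 of 8 batches, and farther on *mt-Tr* had 0.39. *mt-Th* (-0.14), *mt-Ts2* (-0.10), *mt-Tl2* (-0.05) and *mt-Te* (-0.19), toward the far end, were below 0. Without batches 2 and 3 the calls of *mt-Tc* (adjusted p = 0.0574), *mt-Ty* (0.10) and *mt-Tp* (0.243) were lost, and *mt-Tp* passed in 1 of the 8 fits that left out a single batch and *mt-Ty* in 4 of them. All 4 that passed lie on the minus strand of GRCm38, opposite to most mRNAs, and are shorter than the 150-base reads. The strand setting of the counting is not given in the sources used here, so reads of these tRNAs and of RNA from the other strand cannot be told apart. The genes are printed whole, 5′ to 3′ on their own strand.
mt-Tn: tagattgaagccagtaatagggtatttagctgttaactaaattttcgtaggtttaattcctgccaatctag
mt-Tc: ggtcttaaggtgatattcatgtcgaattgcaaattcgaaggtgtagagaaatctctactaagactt
mt-Ty: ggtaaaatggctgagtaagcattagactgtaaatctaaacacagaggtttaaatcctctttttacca
mt-Tp: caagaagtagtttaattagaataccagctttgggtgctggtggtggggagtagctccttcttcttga

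A median of 75.6% of a member's variance in log2 CPM lay between batches (30.5% for *Fastkd3* to 98.2% for *Fastkd2*). Over all tested genes the median was 81.1%, and 46.7% would lie there without a batch effect, so the median of the members was below that of the table as a whole. The 4 libraries of batches 2 and 3, of both treatments, did not overlap the other 12 for 17 members (34.7%), where 22.4% of all tested genes were apart in the same way. In 13 the batches 2 and 3 were above: *Tfam*, *Tfb2m*, *Tefm*, *Mterf1a*, *Mterf2*, *Mterf3*, *Polg2*, *Ssbp1*, *Trmt10c*, *Fastkd2*, *Ptcd3*, *Pnpt1* and *Angel2*. In 4 they were below: *Polg*, *Exog*, *Elac2* and *Tbrg4*. These batches were seen to stand apart in the data and are not groups of the study, so no test was made.

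The members so named were picked because these batches did not overlap the rest, so a difference was fixed by that choice. Where batches 2 and 3 were above, the ratio of means ran from 1.11 for *Angel2* to 1.74 for *Ssbp1*. Where they were below, it ran from 0.773 for *Tbrg4* to 0.834 for *Polg*. *Ssbp1* had 43.2 to 48.0 CPM in the libraries of batches 2 and 3 and 23.7 to 31.2 CPM in the rest, a ratio of means of 1.74. *Fastkd2* had 24.9 to 27.9 against 14.3 to 16.8 CPM, *Trmt10c* 28.5 to 33.0 against 17.2 to 22.1 CPM and *Pnpt1* 32.4 to 37.1 against 20.5 to 23.7 CPM. *Tbrg4* had 29.3 to 31.9 against 37.0 to 44.1 CPM and *Polg* 46.3 to 47.1 against 51.1 to 61.3 CPM. The same batches had the largest share of mitochondrially encoded reads, at 2.21% to 2.42% with DMSO.

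**Figure D5:**
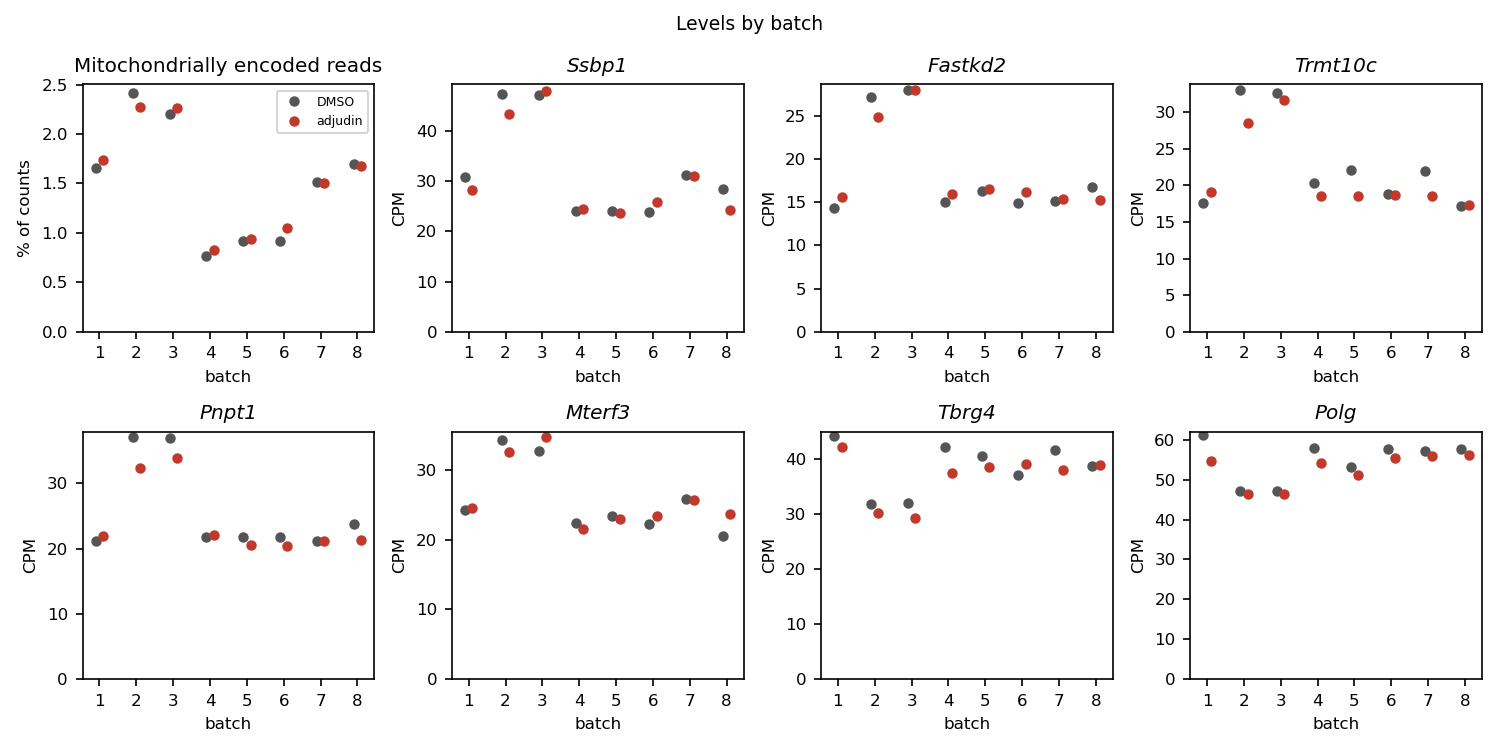
Percentage of counts from mitochondrially encoded genes and CPM of 7 members by batch number, with grey points for DMSO and red points for adjudin. Batches 2 and 3 are highest for the mitochondrial share, *Ssbp1*, *Fastkd2*, *Trmt10c*, *Pnpt1* and *Mterf3* and lowest for *Tbrg4* and *Polg*, in both treatments.

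The members were then set against the mitochondrial share over the 8 DMSO samples, in log2 CPM, with exact permutation over all 40320 pairings and adjustment over all 16910 genes. None of the 49 passed by Pearson's r (0 of 49; 0.0532% of all tested genes passed), and the smallest adjusted p of a member was 0.0744. An r of at least 0.8 in size was reached by 10 members (20.4%) and by 13.9% of all tested genes. *Ssbp1* had r = 0.95 (exact permutation p = 0.00164) and Spearman's rho = 0.83 (exact p = 0.0154, adjusted p = 0.204). *Tefm* had r = 0.91 (exact p = 0.00171) and rho = 0.88 (exact p = 0.00724, adjusted p = 0.160). *Mto1* had r = -0.94 (exact p = 0.00102) and rho = -0.90 (exact p = 0.00456, adjusted p = 0.143), and for each of these the adjusted p of r was 0.0744.

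Left without the samples of batches 2 and 4, the farthest from the median share, r was 0.93 for *Ssbp1*, 0.91 for *Tefm* and -0.89 for *Mto1*. Within the 6 batches other than 2 and 3 it was 0.92, 0.79 and -0.86. There the exact permutation p of r was 0.0806, 0.0847 and 0.0625, with an adjusted p of 0.342 for each. In that subset 14.3% of members and 20.1% of all tested genes had an r of at least 0.8 in size. *Pnpt1* went from 0.82 to 0.20 and *Angel2* from 0.82 to 0.36 without batches 2 and 3, so their relation rested on those samples. In the adjudin samples r was 0.86 for *Ssbp1* and -0.86 for *Mto1*, but 0.51 for *Tefm*, whose rho was 0.24. For *Tfam* r was 0.45 over the 8 samples and -0.35 without batches 2 and 3. In the adjudin samples 5 members passed (*Mterf1a*, *Mterf3*, *Mterf4* and *Ssbp1* with a positive and *Mtpap* with a negative r), where 13.5% of all tested genes passed.

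Other genes of the same processes were taken as 5 further lists, of RNA processing, DNA upkeep and nucleotide supply, mitochondrial tRNA synthetases, translation factors with ribosome assembly, and biogenesis control. Of 93 tested, 0 passed by edgeR, by DESeq2 or by limma-voom, and 11 had an unadjusted p under 0.05, 5 higher and 6 lower with adjudin (11.8%, against 21.0% of all tested genes). The median log2 fold change was 0.0035. The smallest adjusted p was that of *Rrm2b*, the ribonucleotide reductase subunit that supplies nucleotides to non-dividing cells, at 53.3 CPM in DMSO and 58.3 CPM in adjudin samples (log2 fold change 0.12, adjusted p = 0.0688). The others were *Slc25a36*, *Fars2*, *Esrrg* and *Ppard* on the higher side and *Yars2*, *Letm1*, *Ddx28*, *Eral1*, *Malsu1* and *Myc* on the lower side.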

How the data were processed

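Islets of *db/db* mice were sequenced as paired-end reads of 150 bases. The authors aligned reads to GRCm38/mm10 with HISAT2 2.0.5, assigned them to genes with featureCounts 1.5.0-p3, and the deposited values were raw counts, which were not normalised. For the annotation release, strand setting and treatment of reads with several places, nothing is stated in the sources used here. The deposited counts were analysed with edgeR 4.0.16 (R 4.3.3): filterByExpr kept 16910 genes, TMM factors scaled them, and the quasi-likelihood test had batch and treatment as terms, with Benjamini-Hochberg adjustment over all tested genes and a threshold of 0.05. A standard error is the size of the log2 fold change divided by the root of its F statistic. CPM refer to scaled library sizes, and log2 CPM used a prior count of 2. DESeq2 1.42.0 and limma-voom (limma 3.58.1), other scalings and filters, a fit without batch and each batch left out were alternatives. No column or sample was left out.

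The batch numbers in the labels paired the samples: same-numbered samples deviated together (correlation 0.371 to 0.690 over 8 pairs, other pairs median -0.180), and 8 of 8 adjudin samples were closest to their own number. Nothing in the labels says whether islets of 1 mouse were split between treatments. No 2 samples of a treatment were identical (56 pairs, lowest chi-square per degree of freedom 8.97). The genes and lists were chosen with earlier results of these data known. By the naming rule every member could be named, with values over samples for those that passed and, whether or not they passed, for *Tfam*, *Polrmt*, *Tfb2m*, *Tefm*, *Lrpprc*, *Twnk*, *Polg*, *Ppargc1a*, *Nrf1* and *Esrra*, beside the mitochondrial protein and rRNA genes, pathway genes that passed, and the highest and lowest member per length in each role. The values of other members, the tRNA genes that passed, *Mterf1b*, 1110008L16Rik and pathway genes with a small p were chosen after they were seen. Tested on simulated data for 16910 genes of this comparison, the fit found 12% of 50 genes altered 1.1-fold, 44% at 1.2-fold, 80% at 1.5-fold and 94% at 2.0-fold, while unchanged genes made up 4.96% of the calls. Exon overlaps and exonic lengths were taken from GENCODE M21.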

Additional observations from a re-analysis of the deposited data

Results flagged for a closer look

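Samples that lay far from the rest of their group by Dixon's test were looked for in 128 groups of 8 samples, of which chance alone is expected to mark about 5%, and 4 were marked. *Tk2* had 36.3 CPM in the DMSO sample of batch 7, with the next sample at 30.2 CPM. *Ppargc1a* had 2.29 CPM in the DMSO sample of batch 1, with the next at 1.34 CPM, and 2.10 CPM in the adjudin sample of the same batch, with the next at 1.30 CPM. *mt-Nd4l* had 20.2 CPM in the DMSO sample of batch 3, with the next at 9.92 CPM. The high values of *Ppargc1a* came from both treatments of 1 batch.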

How the results depend on the processing

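Of the members, *Lrpprc* passed under 17 of 18 alternatives and *Rexo2* under 11. Without the replicate block (the batch term) 0 members were upregulated, 0 members were downregulated, and 0 mitochondrially encoded genes were called in either direction, where 1 gene was called in the whole table, and the median of the members was -0.019. With each batch left out in turn, downregulated members numbered 0 to 1, upregulated members 1 throughout, mitochondrially encoded genes 6 to 7 upregulated and 4 to 5 downregulated, and pathway genes 0 to 1 upregulated. Pathway genes upregulated numbered 1 when all genes with a count were tested. Without batches 2 and 3, an alternative chosen after seeing the data, 0 members were downregulated, 1 was upregulated, and 5 mitochondrially encoded genes were upregulated and 4 downregulated. In the 8 adjudin samples 5 members (10.2%, against 13.5% of all tested genes) passed for the relation to the mitochondrial share. In the DMSO samples 0 members passed, against 0.0532% of all tested genes. The difference between treatments was thus one of the whole table, and its cause was not tested. Reversed directions, none of a gene that passed, were those of *mt-Atp6* (-0.037 without batches 2 and 3, -0.030 to 0.079 with 1 batch left out), *mt-Nd4l* (0.0078, and -0.33 to 0.041), *Tefm* (-0.0026 to 0.080) and *Nrf1* (-0.043 to 0.0045). Calls over all genes numbered 886, but 257 without batches 2 and 3. Leaving out 1 batch gave 412 (batch 4), 459 (batch 3), 473 (batch 8) and 548 (batch 2), and testing all genes with a count gave 1577. The share of mitochondrial reads did not pass under any alternative run (permutation p = 0.921 without the block, 0.0938 to 0.938 with 1 batch left out). With 8 samples a treatment, changes of about 10% were mostly missed for single genes in the simulation, so a member that did not pass is not shown to be unchanged, and members near 1 CPM have the widest errors. With the batch as a term, tests measure how the difference between adjudin and DMSO within a batch varied over batches. Each sample was the islets of 1 to 2 mice.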
